A study of Mus musculus with 2 samples.

Results

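Trove2, Pum2, Rbm8a, Exoc8, Mmgt1 and Psma3 are 6 mouse genes whose 3′ untranslated region (3′ UTR) held a heavily edited adenosine in wild-type-labelled fibroblasts. They were chosen by measured values: each had at least 1 listed 3′ UTR site with 20 or more reads in the WT-labelled library and an edited base in 60% or more of them. They are 6 of the 20 genes that met this rule. Their rows make up 5 of the 110 sites listed for the KO-labelled library and 20 of the 654 listed for the WT-labelled library. Of the 20 WT-labelled sites, 10 met the rule themselves, and the other 10 lay in the same 3′ UTRs. Pum2 alone had a single listed site, and the other 5 genes had between 2 and 7.

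The study compared poly(A)+ RNA-seq of mouse embryonic fibroblasts (MEFs), connective tissue cells grown from embryos in DMEM with serum, between cultures labelled Adar2-KO (genotype Adar2-/-) and Adar2-WT (genotype Adar2+/+). There was 1 library per genotype, the labels do not say how many embryos or clones stood behind each culture, and they name the TruSeq or the Nextera kit without saying which library had which. No difference described here can therefore be set against the spread between cultures. The intervals cover counting error only. No molecular identifiers were named, and the sources used here do not say whether copies of 1 molecule were removed or counted as separate reads.

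Adenosine deaminases acting on RNA (ADARs) turn adenosine into inosine where RNA is double-stranded, and both reverse transcriptase and the ribosome take inosine for guanosine. ADAR2, encoded by Adarb1, and ADAR1, encoded by Adar, are the active members of the family. In 3′ UTRs the double strand is commonly formed by repeat copies in opposite orientation, and editing there leaves the encoded protein as it is. The 6 proteins do different work. Trove2 encodes Ro60, which binds Y RNAs and misfolded small RNAs, Pum2 encodes a Pumilio protein that represses mRNAs through their 3′ UTRs, and Rbm8a encodes Y14, a core subunit of the exon junction complex. Exoc8 encodes a subunit of the exocyst, which tethers secretory vesicles to the plasma membrane, Mmgt1 a subunit of the endoplasmic reticulum (ER) membrane protein complex, and Psma3 an alpha subunit of the 20S proteasome.

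Behind the expression values stood 9546997 KO-labelled and 9446911 WT-labelled reads, totals recovered from the RPKM values. RPKM, the unit of the expression table, scales a gene's reads by its length and by the library total. The targeted gene did not check the labels: Adarb1 had 25.8 RPKM in the KO-labelled library and 18.4 RPKM in the WT-labelled library, and a value over the whole gene does not test the loss of part of it. The libraries are named by their labels for that reason. Adar, the gene of the other editing enzyme, had 18.7 RPKM in the KO-labelled library and 28.05 RPKM in the WT-labelled library, and the part of that difference in the editing levels was not tested. All 8 fibroblast markers were present in both libraries, at 29.2 to 97.9 RPKM in the KO-labelled library and 9.40 to 96.2 RPKM in the WT-labelled library, where Thy1 was the lowest (72.1 RPKM in the KO-labelled library). The 4 epithelial markers summed to 1.12 RPKM in the KO-labelled library and 2.04 RPKM in the WT-labelled library, with Krt8 higher (1.04 RPKM KO-labelled, 0.0586 RPKM WT-labelled) and Cdh1 lower (0.0712 RPKM KO-labelled, 1.80 RPKM WT-labelled). The 3 endothelial markers summed to 0.275 RPKM (KO-labelled) and 1.61 RPKM (WT-labelled). The 4 blood markers summed to 7.40 RPKM (KO-labelled) and 5.23 RPKM (WT-labelled), nearly all of it the macrophage marker Cd68, while Emr1 and Hba-a1 were listed at 0 in both libraries and Ptprc at 0 in the KO-labelled one. Of the 2 neural markers, Nes had 38.4 RPKM (KO-labelled) and 14.3 RPKM (WT-labelled), and Tubb3 went the other way with 15.7 RPKM (KO-labelled) and 20.1 RPKM (WT-labelled). The pluripotency markers Nanog and Pou5f1 summed to 3.16 RPKM (KO-labelled) and 0.923 RPKM (WT-labelled). The part of other cells in the values that follow was not tested.

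**Figure D1:**
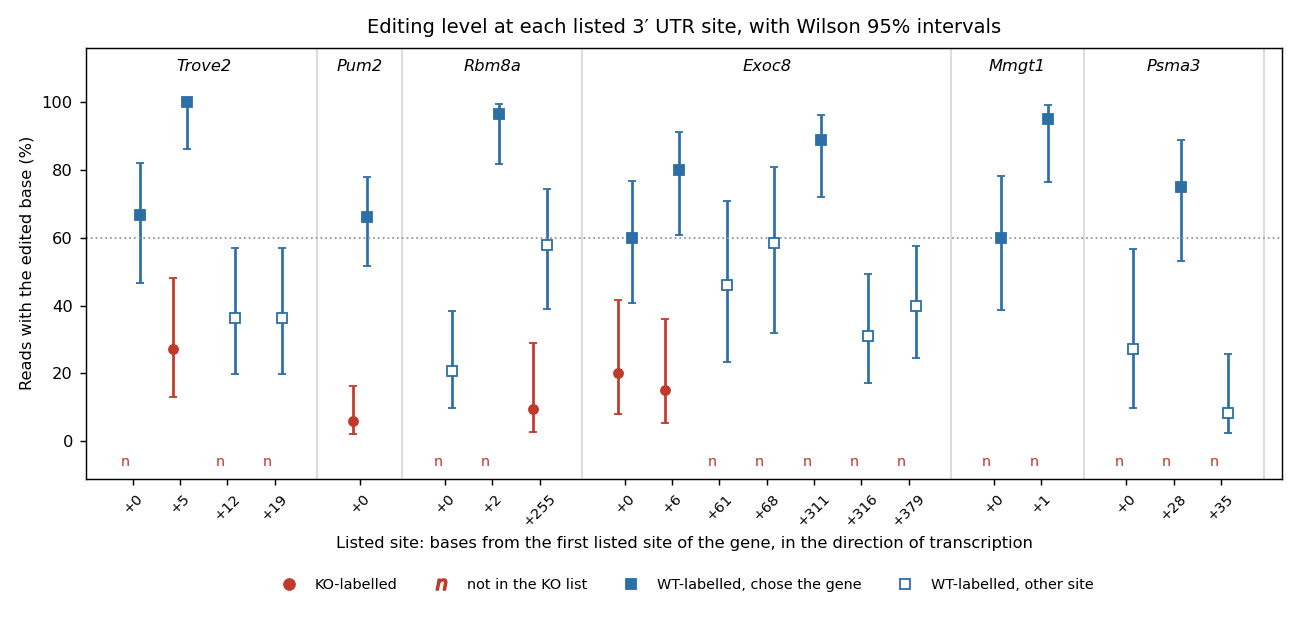
Percent of reads with the edited base (y axis) at the 20 listed sites of the 6 genes, ordered along each transcript (x axis, bases from the first listed site); circles are the KO-labelled library, squares the WT-labelled library, bars Wilson 95% intervals, and n marks a site missing from the KO list. All 5 circles lie below their square, and the sites 5 bases apart in Trove2 and 2 bases apart in Rbm8a differ widely in the WT-labelled library.

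All positions are in the mouse build mm9, and all 20 sites are annotated as 3′ UTR. The sites of 5 genes lay in annotated repeats, and the single site of Pum2 lay outside them. Thus 19 of 20 sites (95%) were in repeats, against 508 of 634 (80.1%) among the WT-labelled sites of other genes in all regions. Among 3′ UTR sites of other genes it was 312 of 395 (79.0%). For sites that met the rule the counts were 9 of 10 (90%) in the 6 genes and 17 of 24 (70.8%) in other genes. Sites of 1 gene lie close together, so they are not independent. The Pum2 site was also the only one of the 20 for which the authors' list gives a position in the human genome, which 16 of all 654 WT-labelled sites have. The genome of build mm9 was not used here, so the bases around the sites are not shown.

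In Trove2, on the minus strand of chromosome 1, 4 listed sites fell within 20 bases (145602494 to 145602513). The site at 145602508 carried the edited base in 6 of 22 KO-labelled reads (27.3%, Wilson 95% interval 13.2 to 48.2) and in 24 of 24 WT-labelled reads (100%, 86.2 to 100). It had the highest level of the 20 sites in the WT-labelled library and of the 5 sites listed in the KO-labelled library. The site at 145602513, 5 bases upstream in the transcript, stood at 16 of 24 WT-labelled reads (66.7%), and those at 145602501 and 145602494 at 8 of 22 reads each (36.4%). None of these 3 neighbours was in the KO list, although the site between them had 22 reads there.

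Pum2, on the plus strand of chromosome 12, had its site at 8757075 edited in 3 of 50 KO-labelled reads (6%, 2.06 to 16.2) and in 31 of 47 WT-labelled reads (66.0%, 51.7 to 77.8). This was the deepest listed site of the 6 genes in both libraries and had their lowest listed level in the KO-labelled library.

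Rbm8a, on the plus strand of chromosome 3, had 3 listed sites. The site at 96436383 chose the gene, with 26 of 27 WT-labelled reads edited (96.3%, 81.7 to 99.3), and it was missing from the KO list. Only 2 bases upstream, the site at 96436381 stood at 6 of 29 WT-labelled reads (20.7%, 9.85 to 38.4). The site at 96436636, 253 bases downstream, was listed in both libraries, with 2 of 21 KO-labelled reads edited (9.52%, 2.65 to 28.9) and 15 of 26 WT-labelled reads (57.7%, 38.9 to 74.5).

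That Rbm8a site was the single shared site of the 6 genes that the rule did not use, since its WT level lay under 60%. Of the shared sites of the 6 genes, only its test result is given. It passed Fisher's exact test, run two-sided on the reads with and without the edited base (adjusted p = 0.00172 by Benjamini-Hochberg over the 55 sites listed in both libraries with 10 or more reads in each). The test sets 1 library against the other and says nothing of the spread between cultures of a genotype. Of the 55 sites, 33 (60%) passed with the lower level in the KO-labelled library, so passing was the common outcome among shared sites. The other 4 shared sites of the 6 genes were among the 55. Their level helped to choose the genes, so their differences are given without a test result.

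Exoc8, on the minus strand of chromosome 8, had the most listed sites, 7 within 380 bases (127417711 to 127418090). Both upstream sites were in both lists. At 127418084, the counts were 3 of 20 KO-labelled reads (15%, 5.24 to 36.0) and 20 of 25 WT-labelled reads (80%, 60.9 to 91.1). At 127418090, they were 4 of 20 KO-labelled reads (20%, 8.07 to 41.6) and 15 of 25 WT-labelled reads (60%, 40.7 to 76.6). This was the 1 shared site of the 6 genes whose intervals overlapped between the libraries. The 2 sites lay 6 bases apart, and neither library set them apart beyond counting error. Further along the transcript, the site at 127417779 reached 24 of 27 WT-labelled reads (88.9%, 71.9 to 96.1) and was missing from the KO list. The remaining 4 sites ranged between 31.0% and 58.3% in the WT-labelled library at depths of 12 to 30 reads, and none was in the KO list.

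Mmgt1, on the minus strand of chromosome X, had 2 listed sites at adjacent bases. In the WT-labelled library the site at 53840820 stood at 19 of 20 reads (95%, 76.4 to 99.1), and the one at 53840821 at 12 of 20 reads (60%, 38.7 to 78.1). Psma3, on the plus strand of chromosome 12, had 3 sites within 36 bases. The site at 72095616 had the edited base in 15 of 20 WT-labelled reads (75%, 53.1 to 88.8), that at 72095588 in 3 of 11 (27.3%) and that at 72095623 in 2 of 24 (8.33%, 2.32 to 25.8). No site of Mmgt1 or Psma3 was in the KO list.

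Some close neighbours differed in level within the WT-labelled library. Among 9 pairs of consecutive listed sites at most 10 bases apart, 5 had Wilson intervals that did not overlap. The same share was not computed for other genes, so 5 of 9 cannot be called high or low. The widest gap was 75.6 percentage points, in Rbm8a over 2 bases, followed by 66.7 points in Psma3 over 7 bases, 63.6 points in Trove2 over 7 bases and 57.9 points in Exoc8 over 5 bases. Sites this close can share reads, and at least 1 site of each of the 5 pairs with intervals apart had been selected on its level. The gaps are therefore a description. No selected site was in the pairs of Trove2 at 145602501 and 145602494 and of Exoc8 at 127418029 and 127418022, and the intervals of both pairs overlapped.

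The 5 sites listed in both libraries ran between 6% and 27.3% (median 15%) in the KO-labelled library and between 57.7% and 100% (median 66.0%) in the WT-labelled library. At 5 of 5 sites the KO-labelled level was the lower one, and the Wilson intervals were apart at 4 of them. Over all 75 shared sites, the KO-labelled level was the lower one at 65. Intervals were apart with the lower level in the KO-labelled library at 30 (40%), and apart with the higher level there at 1. Among the shared 3′ UTR sites of other genes, 18 of 41 (43.9%) had intervals apart with the lower level in the KO-labelled library. Among those of other genes that met the rule it was 9 of 9. The rule used the WT-labelled level of these 9 sites and of 4 of the 5, so the counts are a description. In the 41 shared 3′ UTR sites of other genes, the medians were 13.3% (KO-labelled) and 51.1% (WT-labelled), with the lower level in the KO-labelled library at 40 of 41. The 9 shared sites of other genes that met the rule had medians of 9.52% (KO-labelled) and 71.7% (WT-labelled). The levels of the 6 genes thus lay within the range of the other genes in both libraries.

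**Figure D2:**
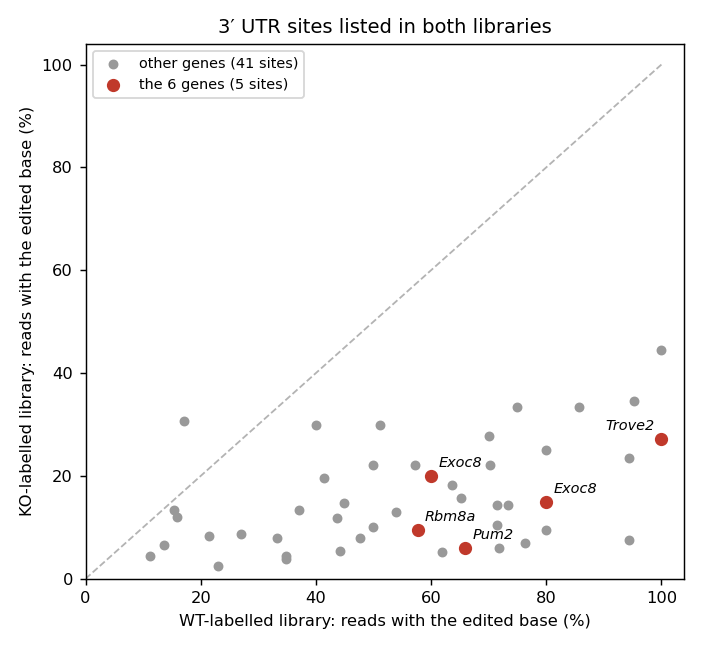
Editing level in the KO-labelled library (y axis, percent of reads) against that in the WT-labelled library (x axis) at all 46 3′ UTR sites listed in both; red points are the 5 sites of the 6 genes, grey points those of other genes, and the dashed line marks equal levels. All 5 red points lie below the line, among the grey ones.

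For shared sites that met the rule, the 3′ UTR site of another gene with the most similar pair of levels was looked up among 26 candidates, by distance in percentage points over the 2 libraries. The Trove2 site was nearest to a site of Rpa1, a gene of DNA replication and repair (chromosome 11, 75114517), at 34.7% of 75 KO-labelled reads and 95.2% of 62 WT-labelled reads. The Pum2 site was nearest to one of the metalloprotease gene Mmp19 (chromosome 10, 128237628), at 5.13% of 39 KO-labelled reads and 61.9% of 42 WT-labelled reads. The Exoc8 site at 127418090 was nearest to one of the carbonic anhydrase gene Car5b (chromosome X, 160415964), at 15.6% of 32 KO-labelled reads and 65.1% of 43 WT-labelled reads. The distances, in the order of the sites named, were 8.84, 4.15 and 6.73 points.

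Most WT-labelled sites of the 6 genes were missing from the KO list. Of the 20 sites, 5 (25%, Wilson 95% interval 11.2 to 46.9) were in both lists, against 70 of 634 (11.04%, 8.83 to 13.7) for other genes. These intervals take each site as independent, although close sites of a gene can share reads. For 3′ UTR sites of other genes alone the count was 41 of 395 (10.4%). Among sites that met the rule the shares were 4 of 10 (40%) in the 6 genes and 9 of 24 (37.5%) in other genes. Among sites of the 6 genes that did not meet it, 1 of 10 (10%) was in both lists. Every listed site had at least 2 edited reads, and the list gives no depth for a missing site, so a missing site is not shown to be unedited. If the depth at the 6 missing sites that met the rule followed the gene's reads in the 2 libraries, it would be 18.8 to 27.2 reads in the KO-labelled library. At the 5 shared sites the same scaling gave 21.7 to 48.4 reads, against 20 to 50 reads observed. Those sites were all listed in the KO-labelled library, so they cannot check the scaling at missing sites. No site of the 6 genes was listed in the KO-labelled library alone.

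The sites nearest the limits of the rule show how the choice fell. Just inside were Exoc8 at 127418090 and Mmgt1 at 53840821, both at exactly 60%, and Psma3 and Mmgt1 at exactly 20 reads. Just outside were Rbm8a at 96436636 (57.7% of 26 reads) and Exoc8 at 127418022 (58.3% of 12 reads). Over all genes, 34 of the 213 3′ UTR sites with 20 or more reads (15.96%) met the level. Trove2, Rbm8a, Mmgt1 and Exoc8 supplied the sites that ranked 1, 2, 4 and 6 of the 213 by level.

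**Figure D3:**
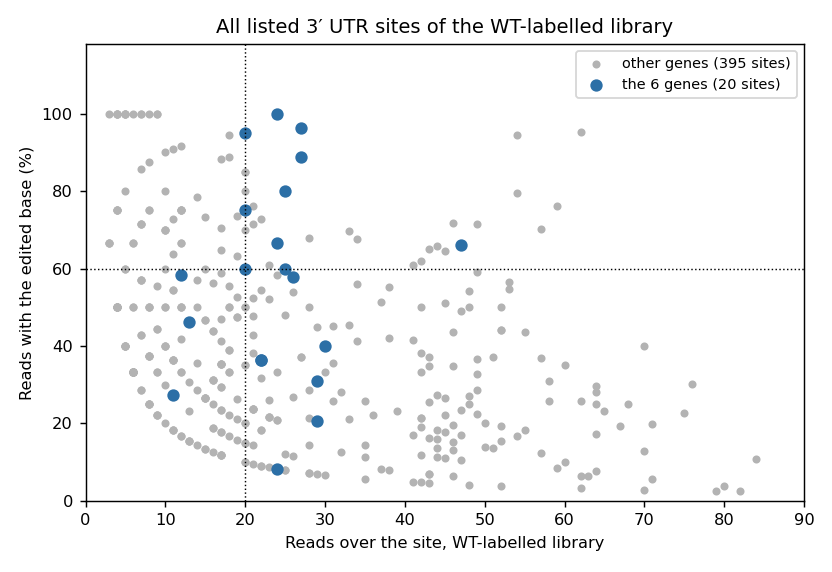
Editing level (y axis, percent of reads) against depth (x axis, reads) for all 415 3′ UTR sites listed in the WT-labelled library; blue points are the 20 sites of the 6 genes (some coincide), grey points those of other genes, and dotted lines mark 20 reads and 60%. The 10 sites that met the rule lie at or beyond both lines, and apart from Pum2 at 47 reads the blue points lie at 30 reads or fewer.

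The transcripts of all 6 genes were present in both libraries at nearly the same level. In bulk RNA, fewer cells of a type and less RNA per cell cannot be told apart. Trove2 had 23.9 RPKM (1991 reads, KO-labelled) and 21.3 RPKM (1758 reads, WT-labelled), and Pum2 had 33.6 RPKM (2146 reads, KO-labelled) and 33.0 RPKM (2084 reads, WT-labelled). These were the 2 genes whose KO-labelled value was the higher one. Rbm8a had 20.02 RPKM (500 reads, KO-labelled) and 22.9 RPKM (565 reads, WT-labelled), and Exoc8 had 13.0 RPKM (922 reads, KO-labelled) and 15.2 RPKM (1063 reads, WT-labelled). Mmgt1 had 36.9 RPKM (1438 reads, KO-labelled) and 37.2 RPKM (1435 reads, WT-labelled), and Psma3 had 13.3 RPKM (180 reads, KO-labelled) and 14.2 RPKM (191 reads, WT-labelled).

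Log2 ratios, taken as log2((KO + 1)/(WT + 1)) of RPKM, were 0.16 for Trove2, 0.03 for Pum2, -0.01 for Mmgt1, -0.09 for Psma3, -0.18 for Rbm8a and -0.21 for Exoc8. None of the 6 genes was 2-fold apart. Over the 13867 genes that reached 1 RPKM in either library, 4.42% had a KO-labelled value 2-fold higher or more, 7.46% had one 2-fold lower or more, and 88.1% differed by less. The median log2 ratio was -0.05 over the 6 genes and 0.01 over all compared genes, whose quartiles were -0.21 and 0.22.

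The exact 95% interval of the reads' log2 ratio, each library's reads taken over its total, lay above 0 for Trove2 (0.07 to 0.26) and below 0 for Exoc8 (-0.35 to -0.09) and Rbm8a (-0.37 to -0.02). It held 0 for Pum2 (-0.06 to 0.11), Mmgt1 (-0.12 to 0.09) and Psma3 (-0.40 to 0.20). Of 13538 compared genes with a single solution for the reads, 27.8% had an interval above 0 and 27.2% one below 0, or 55.1% in all, so 3 of 6 was near the background. The fold change column of the authors' deposited table is scaled differently, which moves every log2 ratio up by 0.05. On that scale the interval of Rbm8a held 0 (-0.32 to 0.04) and the sign of Mmgt1 turned (0.04 in the authors' deposited table). The generalized fold change in the authors' deposited table, which is shrunken toward 0, was 0.11 for Trove2, -0.02 for Exoc8 and 0 for the other 4 genes. With 1 library per genotype, none of these differences has a replicate check.

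Levels per length placed Mmgt1 and Pum2 at the top of the 6 genes, Trove2 and Rbm8a in the middle, and Psma3 and Exoc8 at the bottom in both libraries. Trove2 stood above Rbm8a in the KO-labelled library, with intervals apart, and below it in the WT-labelled library, with intervals that overlapped. Mmgt1 stood above Pum2 in both, and their intervals overlapped in the KO-labelled library only. Psma3 and Exoc8 could not be ordered beyond counting error in either library.

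**Figure D4:**
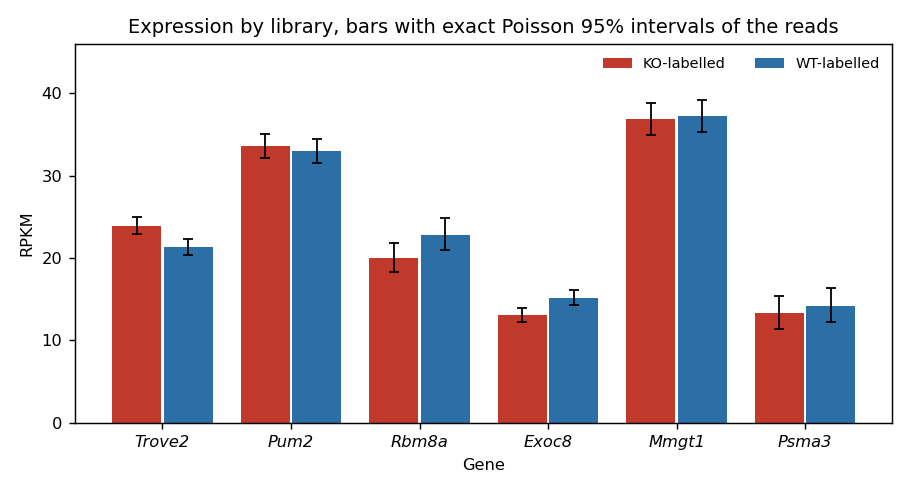
RPKM of the 6 genes (y axis) in the KO-labelled library (red, left bar) and the WT-labelled library (blue, right bar); error lines are exact Poisson 95% intervals of the reads and cover counting error only. The 2 bars of each gene are close, and the largest gap in log2 ratio, in Exoc8, is -0.21.

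Partner genes of the 6 proteins were read from 6 lists, chosen by function but with earlier results of these data known. Of 63 compared partners, 61 (96.8%) lay within 2-fold. None was 2-fold higher or more in the KO-labelled library, and 2 were 2-fold lower or more. Over all 13867 compared genes, 88.1% lay within 2-fold, 4.42% were higher and 7.46% lower by that measure. Trim21, which encodes the interferon-inducible ubiquitin ligase Ro52, had 3.68 RPKM in the KO-labelled library and 15.5 RPKM in the WT-labelled library (log2 ratio -1.82). Emc9, a subunit of the ER membrane protein complex, had 4.55 RPKM in the KO-labelled library and 17.5 RPKM in the WT-labelled library (log2 ratio -1.74).

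Among partners of Ro60, the median log2 ratio of 7 compared genes was 0.06, and the highest was Igf2bp1, an mRNA-binding protein gene (KO-labelled 23.9, WT-labelled 17.2 RPKM, log2 ratio 0.45). The La protein gene Ssb had 38.5 RPKM (KO-labelled) and 37.2 RPKM (WT-labelled). For Pum2, the 11 compared genes of the Pumilio and CCR4-NOT list had a median of 0.12. They ran between the deadenylase gene Cnot6l (KO-labelled 19.98, WT-labelled 22.5 RPKM, log2 ratio -0.16) and Cnot2 (KO-labelled 44.4, WT-labelled 33.5 RPKM, log2 ratio 0.40). For Rbm8a, the 14 genes of the exon junction complex and nonsense-mediated decay had a median of 0.11. They ran between the splicing coactivator gene Rnps1 (KO-labelled 38.3, WT-labelled 45.99 RPKM, log2 ratio -0.26) and the endonuclease gene Smg6 (KO-labelled 18.3, WT-labelled 12.7 RPKM, log2 ratio 0.49). Magoh, which encodes the direct binding partner of Y14, had 19.5 RPKM (KO-labelled) and 19.9 RPKM (WT-labelled).

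The 8 other exocyst genes had a median of 0.05, between Exoc5 (KO-labelled 33.4, WT-labelled 41.1 RPKM, log2 ratio -0.29) and Exoc6 (KO-labelled 5.37, WT-labelled 3.10 RPKM, log2 ratio 0.64). In the list of the ER membrane protein complex, the median of 10 genes was -0.01, and the highest was the Mmgt1 paralog Mmgt2 (KO-labelled 22.8, WT-labelled 16.6 RPKM, log2 ratio 0.44). The 20S proteasome was the tightest list, with all 13 genes between Psma2 (KO-labelled 20.9, WT-labelled 23.3 RPKM, log2 ratio -0.15) and Psmb3 (KO-labelled 25.8, WT-labelled 23.5 RPKM, log2 ratio 0.13) and a median of 0.0034. No gene of the whole table exceeded 124.3 RPKM (KO-labelled) or 107.0 RPKM (WT-labelled), so ratios of abundant genes may be compressed. The part of this in the narrow range was not tested.

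**Figure D5:**
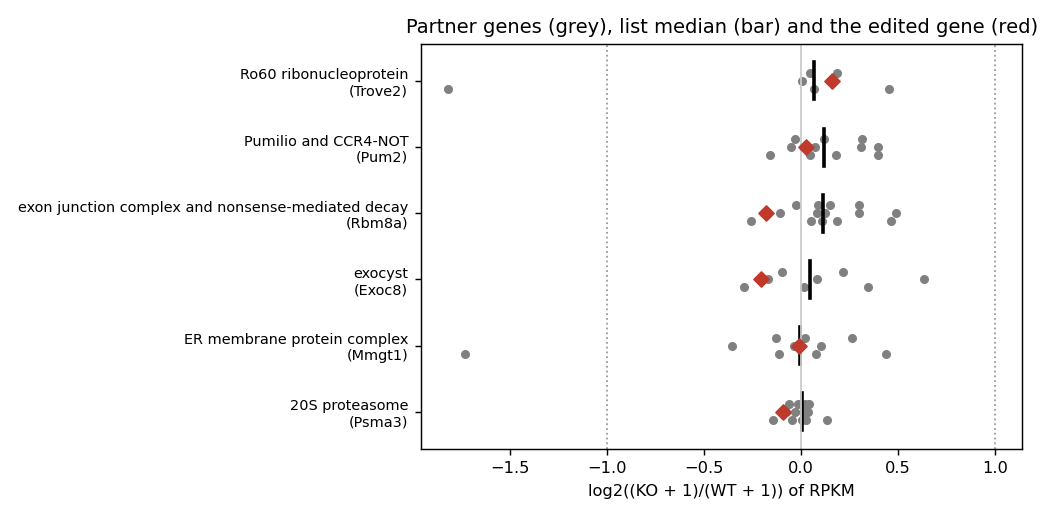
Log2((KO + 1)/(WT + 1)) of RPKM (x axis) for the compared genes of each partner list (grey points), the list median (black bar) and the edited gene named under the list (red diamond); dotted lines mark 2-fold. Trim21 at -1.82 and Emc9 at -1.74 are the 2 points beyond the dotted lines.

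The longest annotated 3′ UTRs of the 6 genes were between 1952 and 6952 bases long, and those of Trove2 and Exoc8 held long inverted repeats. In the GENCODE vM21 annotation of build GRCm38, the longest 3′ UTR was 6952 bases in Trove2, 3632 in Mmgt1, 2861 in Pum2, 2368 in Exoc8, 2219 in Rbm8a and 1952 in Psma3. The shortest annotated form was 110 bases in Psma3 and 281 in Pum2, and only the longest form of each gene was searched. A search for inverted repeats, stretches whose reverse complement recurs in the same 3′ UTR, found arms of 149 aligned bases at 74.5% identity in Exoc8, 136 bases apart. In Trove2 it found arms of 133 aligned bases at 74.4% identity, 127 bases apart. No inverted repeat of 100 bases or more was found in the other 4 genes, where the longest matches were 29 bases in Pum2 and 23 bases in Psma3. Such repeats were present in 38 of 119 (31.9%) of the other genes with a listed WT 3′ UTR site, and in 133 of 12094 (1.1%) of all compared genes with an annotated 3′ UTR. Among compared genes whose 3′ UTR had a length within the range of the 6 genes, the share was 93 of 3552 (2.62%). Where the mm9 sites lie relative to these arms was not tested.

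The gene models behind the RPKM values were not always those of that annotation. The RPKM values and reads give a length of 7407 bases for Exoc8 and 6686 for Pum2, against 4598 and 6226 bases for the transcripts searched, and bases outside the annotated 3′ UTRs were not searched. For Psma3 the implied length was 1420 bases, against 2846 in the transcript with the longest 3′ UTR. Whether its listed sites lie within the shorter model was not tested.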

How the data were processed

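The authors deposited 1 RPKM column per library in a table laid out like GFOLD output, with a log2 fold change and a generalized log2 fold change of KO over WT, per the file headers. Their lists of edited sites give, per the file headers, the read count over a site, the level as a fraction, and how many of those reads carry the mismatch. Build mm9, SAMtools and STAR 2.4.0d appear in the submitters' processing notes. The sources used here do not give the site caller, its filters, the gene annotation or strand use, so overlapping genes can share reads.

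Editing levels were computed as percent with Wilson 95% intervals (scipy 1.17.1). Shared sites with 10 or more reads in both libraries entered Fisher's exact test with Benjamini-Hochberg adjustment and a threshold of 0.05. Whole reads were recovered from RPKM and the fold change column, and a single pair gave back the printed digits for 96.2% of 17981 genes above 0. Mmgt1 had 6 possible pairs; the smallest was used, since the next implies a gene of 19071 bases. Genes were compared at 1 RPKM or more with a pseudocount of 1. No p-value was computed across genes, because each genotype had 1 library. Inverted repeats were sought with blastn 2.17.0 (word size 11) in the longest 3′ UTR per gene, matched by symbol for 87.2% of 13867 compared genes and for all 6 genes. Read recovery, the Fisher test and the repeat search were tested on simulated data. RPKM did not exceed 124.3 in the KO-labelled or 107.0 in the WT-labelled library, so abundant genes may be compressed.

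Named are the 6 genes, the partners with the highest and the lowest log2 ratio in each list with any 2-fold apart, and the nearest site to each shared site meeting the rule; Ssb and Magoh were added as close partners, chosen after their values were seen. The nearest site of Exoc8 at 127418084 and 1 partner gene are not reported here. Members, lists and tests were chosen with earlier results of these data known. Y RNA genes of the Ro60 list were not analysed here.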

Additional observations from a re-analysis of the deposited data

How the results depend on the processing

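Of 81 recomputed values, 2 log2 ratios, of Rbm8a (0) and Exoc8 (-0.02) in the authors' generalized fold change, which shrinks by design, moved beyond their counting interval. The sign turned for Mmgt1 on the authors' scaling (0.04) and for the 20S proteasome median when centred (-0.0020). With reads pooled over sites, the level was 13.5% (KO-labelled) and 58.3% (WT-labelled), against medians over sites of 15% (KO-labelled) and 59.2% (WT-labelled). Clopper-Pearson intervals were also apart at 4 of the 5 shared sites. The Rbm8a site at 96436636 had an adjusted p of 0.00150 to 0.0413 across read minimums of 5 and 20 and Bonferroni adjustment (Fisher's exact test), while the calls over all genes numbered 25 to 35, against 33. The share of WT sites also in the KO list lay between 23.5% and 29.4%. No member was 2-fold apart at pseudocounts of 0.1 or 5, centred on the median, or by the authors' columns, and the 2 partner genes 2-fold lower stayed 2 under each alternative. The authors' own scaling was added after seeing the data. Depth limits the sites: at 20 reads the Wilson intervals of Mmgt1 at 53840821 and Psma3 at 72095616 run from 38.7 to 78.1% and from 53.1 to 88.8%. No paired analysis was possible because each genotype had 1 library.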
